A study of Mus musculus with 3 samples.

Results

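The genes described here are 10 inhibitory receptors and associated markers of T cell exhaustion: Pdcd1, Havcr2, Lag3, Tigit, Ctla4, Cd244a, Cd160, Cd101, Entpd1 and Tox. They are listed by name, the rule itself uses no measured value, and all 10 were found once each among the 55401 genes of the count matrices. The cells came from tumours of YUMM1.7, a transplantable mouse melanoma line. In each of 3 groups, mice aged 4, 12 or 20 months received 500000 tumour cells under the skin and no other treatment is named; strain and sex are not given in the sources used here. Tumours were taken after 18 days and broken up with DNase I and collagenase D. Live CD45+ cells, which are leukocytes, were sorted and given 3′ single-cell RNA sequencing with a PIP-seq kit. The labels name 7 mice per age, and each age has 1 library. No test across animals was therefore possible, and every interval given below covers counting error only.

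Inhibitory receptors restrain lymphocytes after activation, and many of them carry tyrosine motifs in their tails that recruit phosphatases to the antigen receptor. CD8 T cells that meet antigen for a long time in a tumour or a chronic infection keep several of them on the surface at once, together with the nuclear factor TOX, a state called exhaustion. The same genes also serve other cells: CTLA-4 works in regulatory T cells, 2B4 and CD160 in natural killer (NK) cells, and TIM-3 and CD39 in myeloid cells.

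The matrices held 14393, 14653 and 14684 cells at 4, 12 and 20 months, with medians of 6789, 7411 and 6936 counts per cell. After removal of predicted doublets and of 2 cells with a high mitochondrial share, 13528, 13774 and 13803 cells were kept. Between 2 and 4 barcodes were shared by any pair of libraries, and none by all 3. The labels give melanoma as the cell type although CD45+ cells were sorted. The summed level of 6 melanoma markers was 3.66, 4.00 and 4.49 CPM in CD8 T-like cells and 4.11, 4.70 and 4.93 CPM in macrophage-like cells. Despite the sort, 51, 31 and 46 fibroblast-like cells were found. Cells were grouped without the 10 genes, and classes are named from marker genes, with "-like" to mark that the names were rebuilt here. The analysis used 17 classes with at least 50 cells in every library. Levels are in CPM, the usual scaling of a gene's summed counts by all counts of the same class and library. Levels of different genes are not compared, because a 3′ count is not scaled to transcript length and capture differs between genes.

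For 3 of the genes the 250 bases before the start site are shown, because the results below turn on them. Pdcd1 had its highest levels in T cells and Havcr2 in myeloid cells. Of the 10 genes, Cd244a differed most between 20 and 4 months in CD8 T cells. They come from RefSeq on GRCm38.p6, read 5′ to 3′ on the gene's strand, and capitals mark matches on either strand to the NFAT core GGAAA, the AP-1 site TGANTCA, the PU.1 site GAGGAAGT and the RUNX site TGTGGT.
Pdcd1 chr1:94052554-94052803, minus strand: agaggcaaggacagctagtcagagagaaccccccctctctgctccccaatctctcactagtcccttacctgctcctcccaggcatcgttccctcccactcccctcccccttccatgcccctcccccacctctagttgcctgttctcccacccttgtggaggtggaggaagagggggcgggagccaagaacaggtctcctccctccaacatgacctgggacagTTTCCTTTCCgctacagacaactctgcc
Havcr2 chr11:46454681-46454930, plus strand: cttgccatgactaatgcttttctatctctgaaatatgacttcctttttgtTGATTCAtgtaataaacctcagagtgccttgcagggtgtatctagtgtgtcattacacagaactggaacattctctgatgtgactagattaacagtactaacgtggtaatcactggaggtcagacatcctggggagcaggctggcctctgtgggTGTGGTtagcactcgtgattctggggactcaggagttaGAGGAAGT
Cd244a chr1:171558943-171559192, plus strand: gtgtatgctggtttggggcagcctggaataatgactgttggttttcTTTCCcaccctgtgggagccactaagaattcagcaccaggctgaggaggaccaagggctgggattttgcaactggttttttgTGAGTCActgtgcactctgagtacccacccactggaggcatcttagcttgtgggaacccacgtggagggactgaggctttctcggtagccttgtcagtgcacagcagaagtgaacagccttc
Pdcd1 has 2 adjoining matches to the NFAT core, both as the reverse complement. Havcr2 has 1 match each to AP-1, RUNX and PU.1, and Cd244a has 1 each to NFAT and AP-1. Sequence was matched for 8 of the 10 genes, with 10 windows in all; the NFAT core was in 7 of them, RUNX in 5, AP-1 in 2 and PU.1 in 1. Over all 32851 windows of this length the shares were 55.6% for the NFAT core, 14.0% for RUNX, 6.75% for AP-1 and 2.44% for PU.1. The NR4A site AAAGGTCA and the T-box site AGGTGTGA were in none of the 10 windows, with shares of 1.34% and 1.12% over all windows. None of these motifs contains another. A match is a run of letters and does not show that a factor binds there.

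On GRCm38, 3 of the 10 genes lie on chromosome 1: Ctla4 (60887000 to 60915832, plus strand), Pdcd1 (94038305 to 94052553, minus) and Cd244a (171559193 to 171609746, plus). Chromosome 3 holds Cd160 (96798763 to 96829351, minus) and Cd101 (100993529 to 101029556, minus). Tox lies on chromosome 4 (6686353 to 6991557, minus), Lag3 on 6 (124904361 to 124911705, minus) and Havcr2 on 11 (46454935 to 46481255, plus). Tigit lies on chromosome 16 (43648867 to 43664146, minus) and Entpd1 on 19 (40612366 to 40741602, plus).

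RNA released from broken cells adds counts to droplets of every class, so each class was set against genes that it should lack. The T cell markers Cd8a, Cd8b1 and Trac reached 6.5% to 16.2% of their level in all T cells in macrophage-like cells, and 8.3% to 15.8% in NK-like cells. In the other direction, 9 macrophage and monocyte markers reached 5.6% to 11.2% of their myeloid level in CD8 T-like cells. A gene whose share of the source level lies near these bands is called near background in that class, without a test.

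Pdcd1, which encodes PD-1, the receptor of PD-L1, had its highest levels in T cell classes. CD8 T-like cells held 353 CPM (95% Poisson interval 345 to 362) at 4 months, 269 (263 to 276) at 12 and 286 (280 to 294) at 20. They made up 19.5%, 24.1% and 20.7% of all counts in the 3 libraries and held 71.4%, 61.2% and 61.9% of the Pdcd1 counts. Only a small T cell cluster led by Ccl1 and Penk, with 52, 107 and 88 cells, was higher, at 468, 389 and 445 CPM. It carried CD8 and CD4 marker scores of about the same size and is left unnamed. Gamma-delta T-like cells followed at 137, 203 and 201 CPM, and regulatory T-like cells at 84.4, 95.7 and 93.4 CPM, with intervals that met those of the next class. All 10 classes of myeloid, NK or dendritic cells were lower than these. Not every T cell class was above them in every library, since a cluster led by Dapl1 and Gzmm held 59.7, 43.2 and 40.1 CPM. Mature dendritic cell-like cells held 54.9, 44.3 and 47.1 CPM. T-like cells bearing Ly49 receptor genes held 34.5, 100 and 68.3 CPM. Macrophage-like cells held 24.98, 38.8 and 36.4 CPM. That was 10.2% to 20.1% of the T cell level, and NK-like cells reached 10.4% to 18.7%. Both lay close to the band of the T cell markers. Within each of the 3 libraries, however, the Pdcd1 share exceeded that of all 3 markers in both classes. With every cell thinned to 3000 counts, Pdcd1 was detected in 46.2%, 39.0% and 46.5% of CD8 T-like cells against 7.53%, 11.8% and 10.0% of macrophage-like cells. Before thinning the CD8 T-like shares were 59.5%, 56.2% and 63.9%, from medians of 5173, 5911 and 5692 counts per cell, and the macrophage-like shares 18.9%, 29.96% and 28.1%, from medians of 8277, 9183 and 8299 counts.

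Tox, a nuclear factor of the exhausted state, followed the same order at its top. The Ccl1-led cluster held 271, 163 and 174 CPM and CD8 T-like cells 160, 120 and 148 CPM. At 4 months both were clear of the next class. Gamma-delta T-like cells, a small class, held 45.0, 90.002 and 122 CPM. Their intervals met those of CD8 T-like cells at 12 and 20 months. Regulatory T-like cells held 98.1, 84.9 and 97.5 CPM, and NK-like cells 62.9, 61.8 and 60.1 CPM. The NK-like level was 49.3% to 62.0% of that in T cells, well above the band of the T cell markers. The monocyte, macrophage and dendritic classes other than plasmacytoid cells held 11.7 to 25.7 CPM. Macrophage-like cells lay at 12.8% to 19.2% of the T cell level, near background but above all 3 T cell markers in each library. CD8 T-like cells held 50.3%, 47.2% and 50.7% of all Tox counts.

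Ctla4, whose product competes with CD28 for the ligands CD80 and CD86, was highest in regulatory T-like cells. These held 1793, 1717 and 1606 CPM at 4, 12 and 20 months, clear of every other class in all 3 libraries. They made up 4.20%, 4.23% and 3.07% of all counts and held 28.6%, 24.1% and 18.9% of the Ctla4 counts, and 90.2%, 91.2% and 92.3% of them had a Ctla4 count after thinning. CD8 T-like cells came next with 359, 365 and 359 CPM, level across ages and not separable from the Ccl1-led cluster at 314, 357 and 365 CPM. NK-like cells held 226, 259 and 263 CPM and macrophage-like cells 117, 137 and 132 CPM. Both exceeded the background band, at 43.5% to 63.0% and 22.5% to 31.7% of the T cell level. An annotated ribosomal pseudogene, Rpl18-ps1, lies on the same strand inside Ctla4. How reads were divided between them is not given in the sources used here. In the few fibroblast-like cells Ctla4 was at 120, 179 and 160 CPM, and in the few B-like cells at 208, 332 and 229 CPM. Ctla4 levels outside regulatory T-like cells, and the comparisons and pairs below that use them, are therefore uncertain.

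Lag3, a receptor for MHC class II, was as high in plasmacytoid dendritic cells as in any T cell class. Plasmacytoid dendritic cell-like cells held 341, 291 and 322 CPM and the Ccl1-led cluster 323, 243 and 280 CPM, with overlapping intervals in all 3 libraries. CD8 T-like cells held 139 CPM at 4 months, 105 at 12 and 97.8 at 20. The plasmacytoid level was 333% to 483% of the level in all T cells, and so above that of the T cells themselves. These cells numbered 60, 57 and 52, and 61.7%, 52.6% and 55.8% of them had a Lag3 count after thinning, against 28.1%, 22.4% and 22.6% of CD8 T-like cells. Being numerous, CD8 T-like cells still held 53.6%, 47.4% and 49.5% of all Lag3 counts. Regulatory T-like cells had 57.6, 69.0 and 47.3 CPM and NK-like cells 48.1, 55.2 and 45.9 CPM.

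Havcr2, which encodes TIM-3, had its highest levels in monocytes and dendritic cells. Nonclassical monocyte-like cells held 220, 204 and 155 CPM, and type 1 dendritic cell-like cells, the cross-presenting subset, 140, 162 and 193 CPM. Monocyte-like cells held 184, 136 and 141 CPM, and macrophage-like cells 119, 104 and 93.9 CPM. The order at the top was not stable, and another class led under most other settings. CD8 T-like cells held 93.1, 81.3 and 89.2 CPM, which was 58.4% to 79.7% of the myeloid level and far above the 5.6% to 11.2% of the myeloid markers in the same cells. The Ccl1-led T cell cluster held more, at 138, 129 and 124 CPM, and NK-like cells less, at 41.1, 35.6 and 37.9 CPM. CD8 T-like cells held 16.9%, 23.8% and 21.6% of all Havcr2 counts, close to their share of all counts, and macrophage-like cells 17.7%, 18.8% and 25.6%.

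Tigit, whose product competes with the activating receptor CD226 for CD155, was low and spread over the lymphocytes. Regulatory T-like cells held 72.3, 64.6 and 56.7 CPM, CD8 T-like cells 40.4, 45.8 and 42.1 CPM, and NK-like cells 34.5, 41.5 and 37.4 CPM. The NK-like level was 84.0% to 92.1% of that in T cells. Macrophage-like cells, at 19.6, 30.1 and 24.8 CPM, still held 47.6% to 66.7% of the T cell level, a share above that of the T cell markers.

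Cd244a encodes 2B4, a SLAM family receptor that binds CD48, and its highest level was in NK-like cells. They held 275, 259 and 240 CPM, clear of every other class in all 3 libraries, and 38.6%, 39.8% and 31.9% of all Cd244a counts. Monocyte-like cells held 161, 163 and 155 CPM, and type 2 dendritic cell-like cells 145, 131 and 143 CPM. CD8 T-like cells lay lower and differed between ages, at 79.9, 63.7 and 46.2 CPM. Regulatory T-like cells were among the lowest, at 34.2, 33.3 and 26.1 CPM. Ly9 overlaps 37.2% of Cd244a on the opposite strand, and whether strand was used in counting is not given in the sources used here.

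Cd160 encodes a receptor for HVEM and MHC class I, and its highest levels were in lymphocytes. The unnamed Ccl1-led T cell cluster was highest at 514, 521 and 554 CPM, followed by T-like cells bearing Ly49 receptor genes at 343, 354 and 254 CPM. NK-like cells held 236, 251 and 227 CPM, and CD8 T-like cells 167, 180 and 185 CPM. Regulatory T-like cells held 23.9, 31.3 and 23.5 CPM, in the range of 13.5 to 38.0 CPM seen in the monocyte, macrophage and dendritic classes. Macrophage-like cells, at 20.7, 35.1 and 20.4 CPM, reached 12.9% to 19.3% of the T cell level.

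Cd101, an immunoglobulin family protein used as a mark of terminally exhausted cells, was rare in every class. CD8 T-like cells held 24.7, 22.8 and 20.9 CPM, the highest of the named classes by their mean over the 3 libraries. Regulatory T-like cells held 21.8, 18.5 and 19.1 CPM, and a myeloid cluster led by Il1b and Cxcl2 held 16.4, 20.5 and 22.3 CPM. NK-like cells held 4.24, 6.55 and 6.02 CPM. The macrophage-like level was 58.5% to 86.6% of that in T cells.

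Entpd1 encodes CD39, an enzyme that removes phosphates from extracellular ATP, and its highest mean level over the 3 libraries was in monocyte-like cells. They held 134, 132 and 150 CPM. Nonclassical monocyte-like cells followed by that mean, at 157, 94.1 and 109 CPM, then the myeloid cluster led by Il1b and Cxcl2, at 107, 108 and 121 CPM. Regulatory T-like cells came after these with 108, 101 and 107 CPM, above activated monocyte-like cells at 102, 97.2 and 93.8 CPM. Macrophage-like cells held 80.3, 88.6 and 92.8 CPM, against 79.4, 70.0 and 66.6 CPM in CD8 T-like cells. The CD8 T-like level was 64.2% to 77.5% of that of the myeloid compartment, above the myeloid markers' band. NK-like cells held 27.8, 30.9 and 25.3 CPM.

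**Figure D1:**
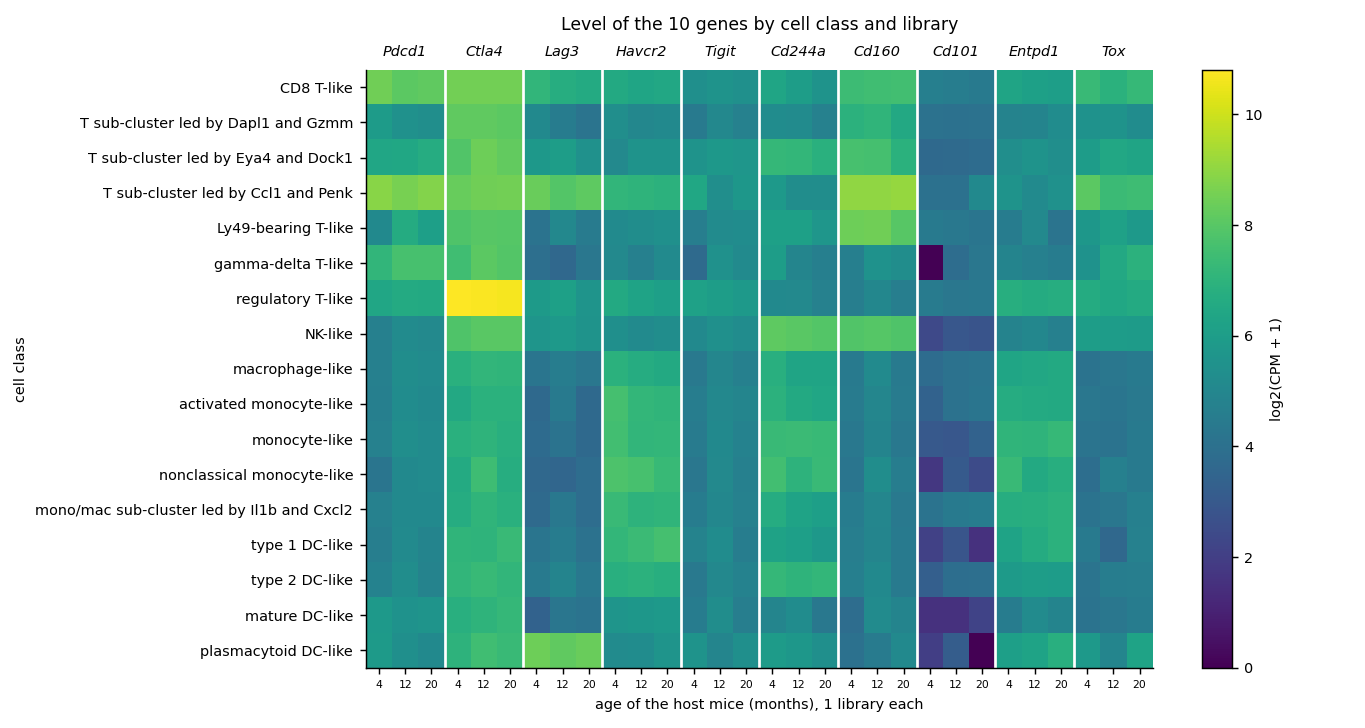
Level of each of the 10 genes (columns, grouped by gene, with 4, 12 and 20 months side by side) in 17 cell classes (rows), coloured by log2(CPM + 1). Pdcd1 and Tox are brightest in CD8 T-like cells and the Ccl1-led T cluster, Ctla4 in regulatory T-like cells, and Cd244a in NK-like cells. Entpd1 is brightest in monocyte classes. Havcr2 is brightest in nonclassical monocyte-like cells at 4 and 12 months, and in type 1 dendritic cell-like cells at 20.

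Counted over the 10 genes, CD8 T-like cells stood above NK-like cells by at least 2-fold in all 3 libraries for Pdcd1, Havcr2, Cd101 and Entpd1, and below for Cd244a; over all genes compared, 2.84% were above and 2.13% below by that rule. Pdcd1 was 7.44-fold to 13.9-fold higher and Cd244a was 0.192 to 0.290 times the NK-like level. Against macrophage-like cells 5 genes were above (Pdcd1, Ctla4, Lag3, Cd160 and Tox) and none below, where 7.7% of all genes were above and 13.3% below. Against regulatory T-like cells Pdcd1 (2.81-fold to 4.19-fold) and Cd160 (5.76-fold to 7.90-fold) were above and Ctla4 was below at 0.200 to 0.224 times, with backgrounds of 1.42% above and 3.43% below. A T cell cluster led by Dapl1 and Gzmm, whose leading genes include Ccr7, S1pr1 and Il7r of less differentiated T cells, is the other large T cell population, with 534, 1073 and 1892 cells. CD8 T-like cells stood above it for Pdcd1 (5.92-fold to 7.15-fold), Lag3 (4.11-fold to 5.73-fold), Havcr2 (2.35-fold to 2.64-fold) and Tox (2.63-fold to 3.99-fold) and below it for none, with backgrounds of 2.4% and 0.805%. The T-like cells bearing Ly49 receptor genes had Pdcd1, Lag3, Havcr2 and Entpd1 at least 2-fold below CD8 T-like cells and none above, with 2.17% and 0.792% of all genes. Against the Ccl1-led cluster none was above and Lag3 (0.350 to 0.431 times) and Cd160 (0.326 to 0.346 times) were below, with 1.35% and 1.49% of all genes.

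The remaining classes gave a similar split between the lymphoid and the myeloid genes of the 10. Pdcd1, Ctla4, Lag3, Cd160 and Tox were at least 2-fold higher in CD8 T-like cells than in activated monocyte-like cells (13.5% of all genes above, 17.5% below), the Il1b-led cluster (8.34% and 14.7%) and type 2 dendritic cell-like cells (7% and 15%). The same 5 genes and Cd101 were higher than in monocyte-like cells (12.5% and 19.1%), nonclassical monocyte-like cells (8.15% and 16.5%), type 1 dendritic cell-like cells (6.86% and 18.1%) and mature dendritic cell-like cells (13% and 12.6%). Of these classes only monocyte-like cells had a gene at least 2-fold higher than CD8 T-like cells, which was Cd244a (the CD8 T-like level was 0.299 to 0.496 times theirs). Plasmacytoid dendritic cell-like cells were lower for Pdcd1, Ctla4, Cd160 and Cd101 and higher for Lag3, with 9.17% and 25.5% of all genes. In every class where Cd101 was called here, its mean level was below 10 CPM. Plasmacytoid dendritic cell-like cells held 3.04, 8.07 and 0 CPM of Cd101, from very few counts. Gamma-delta T-like cells were lower for Lag3, Havcr2, Cd160 and Entpd1 and higher for none (1.63% and 3.22%). A T cell cluster led by Eya4 and Dock1, which also carried NK markers, was lower for Pdcd1 alone (1.3% and 0.691%).

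The genes whose levels followed each of the 10 most closely were ranked by Pearson's r of log2(CPM + 10) over 39 points, 13 named classes in 3 libraries, as a description. The points of a library share its depth and free RNA. Pdcd1 was followed most closely by Cxcr6 (r = 0.884), Lat (0.880) and Cd3g (0.878). Ctla4 was closest to Chchd10 (0.946), Igflr1 (0.944) and Cd5 (0.938). Cd160 was closest to Ctsw (0.966), Klrc2 (0.959) and Klrc1 (0.958), the last pair being NK receptor genes. Lag3 had Ncald (0.884), Tmem163 (0.882) and Prkca (0.876), and Havcr2 had Lgals3 (0.892), Tkt (0.878) and Zmiz1 (0.875). Tox was closest to Gm30054 (0.947), Vmp1 (0.918) and Agap2 (0.915), and Entpd1 to Mindy3 (0.857), Itgav (0.845) and Vamp3 (0.828). Cd244a, with Ugt1a10 (0.843), Tigit, with Slc52a3 (0.781), and Cd101, with Rhoh (0.807), had looser leading matches. Among the 10 genes themselves Pdcd1 and Tox (0.801), Havcr2 and Entpd1 (0.796) and Ctla4 and Tigit (0.761) were most alike. Havcr2 and Tox were least alike, at -0.562.

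Of the 10 genes in CD8 T-like cells, Cd244a differed most between 20 and 4 months, followed by Lag3 and Pdcd1, while at 12 months Tox, Lag3 and Pdcd1 differed more than Cd244a. The Cd244a levels of 79.9, 63.7 and 46.2 CPM gave a log2 ratio to 4 months of -0.33 at 12 months and -0.79 at 20 months (95% interval -0.90 to -0.68). Cd244a was the 1 gene of the 10 past 1.5-fold at 20 months, at 0.58 times the 4-month level, where 1.13% of 8290 genes were lower by that fold and 2.75% higher. At 12 months none of the 10 was past 1.5-fold, with 0.844% of genes lower and 2.52% higher. Lag3 was lower at both later ages (-0.41 and -0.51, interval at 20 months -0.59 to -0.42), and so was Pdcd1 (-0.39 and -0.30, interval at 20 months -0.35 to -0.25). Tox was lower at 12 months (-0.41) and near its 4-month level at 20 (-0.10). Ctla4 hardly differed (0.03 and 0.00), and Cd160 (0.11 and 0.15) and Tigit (0.18 and 0.06) were slightly higher. Havcr2 (-0.20 and -0.06), Entpd1 (-0.18 and -0.25) and Cd101 (-0.11 and -0.24) were slightly lower. The median over the 10 genes was -0.19 at 12 months and -0.17 at 20, against -0.01 and -0.05 over all genes that passed the level filter of 10 CPM. With 1 library per age, a difference of age cannot be told apart from a difference between libraries.

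**Figure D2:**
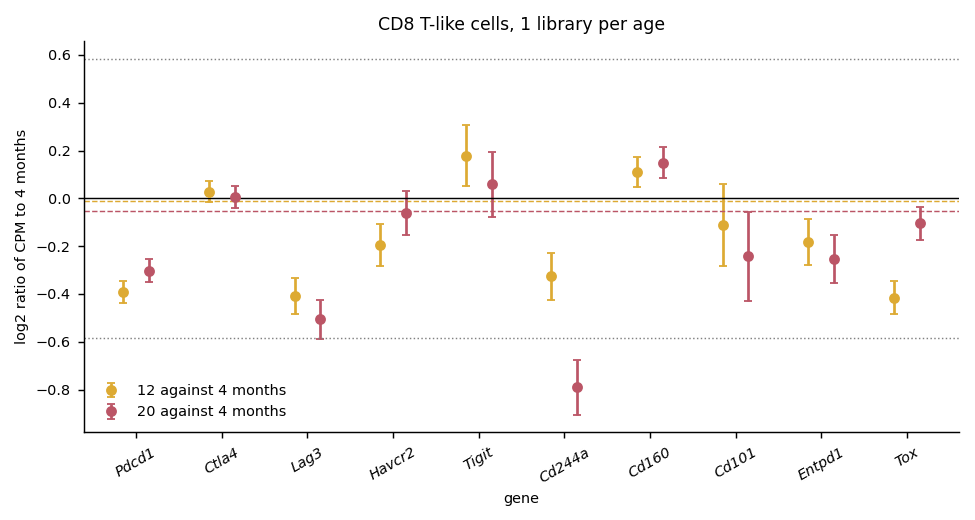
log2 ratio of each gene's CPM in CD8 T-like cells at 12 and 20 months to that at 4 months (points, 1 library per age), with 95% exact intervals for counting error, the 1.5-fold lines dotted and the median of all genes dashed. Cd244a at 20 months (-0.79) is the 1 point past a dotted line, and Ctla4 lies at 0 at both ages.

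Some NK marker transcripts were also lower in these cells at the later ages. The summed NK marker level in CD8 T-like cells was 1239, 770 and 572 CPM at 4, 12 and 20 months. Gzma and Eomes are in that sum, and Eomes was higher at the later ages (given below). The NK receptor gene Ncr1 was at 45.5, 37.4 and 24.4 CPM. Ncr1 in CD8 T-like cells was 6.10%, 5.15% and 3.67% of its NK-like level, whereas Cd244a was 29.0%, 24.6% and 19.2% of its own. The macrophage marker sum in the same cells was 516, 697 and 979 CPM, and that of dividing-cell markers 365, 542 and 622 CPM. In the 426, 714 and 958 CD8 T-like cells without a count of the NK markers other than Gzma and Eomes, a selection chosen after seeing the data, the Cd244a ratio at 20 months was -0.47. In those cells the median over the 10 genes was 0.02 at both ages, and Pdcd1 at 20 months was at 0.07. This selection used unthinned counts and so depends on depth, and it kept a different share of cells at each age. The part of the free or mixed-in RNA in the differences between ages was not tested.

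Of the sub-clusters of CD8 T-like cells, the one led by Pdcd1 and Rgs16 had the highest level of 8 of the 10 genes in all 3 libraries; Ctla4 at 20 months and Cd101 at 12 and 20 months were slightly higher in another. The 10 genes were left out when cells were grouped. It held 755, 668 and 736 cells, or 24.6%, 17.7% and 22.3% of CD8 T-like cells. Its Pdcd1 level was 632, 509 and 506 CPM, and its Tox level 296, 236 and 248 CPM. In the same cells Lag3 was at 249, 211 and 176 CPM, Havcr2 at 150, 132 and 142 CPM, and Cd244a at 135, 92.1 and 56.4 CPM. A dividing sub-cluster led by Hist1h2ao took 10.9%, 17.8% and 21.7% of the cells and held 347, 314 and 246 CPM of Pdcd1. The sub-cluster led by Ifitm1 took 20.0%, 9.39% and 4.72%, that led by Cxcr6 and Snord118 took 19.7%, 24.7% and 33.6%, and that led by Cxcr6 and Cd8a took 24.6%, 30.1% and 17.5%. The ratios over all CD8 T-like cells therefore compare different mixtures of sub-clusters; with equal weights over them, the 20-month ratio was -0.08 for Pdcd1, -0.40 for Lag3 and -0.62 for Cd244a. The other 3 sub-clusters of sufficient size held 125 to 247 CPM of Pdcd1. Lag3 was lower than at 4 months in all 5 sub-clusters at both ages, from -0.59 to -0.26 on the log2 scale at 20 months. Cd244a was lower in 4 of 5 at 12 months and in 5 of 5 at 20 months, from -1.26 to -0.08; the counting interval lay below 0 in 1 of 5 and in 4 of 5. Pdcd1 was lower in 5 of 5 at 12 months but in 2 of 5 at 20 months, from -0.49 to 0.37, and Tox likewise in 5 and in 2, from -0.48 to 0.61. Levels of Pdcd1 and Tox at 20 months thus went both ways between sub-clusters, while those of Lag3 and Cd244a went one way. All these ratios compare the same libraries, and the share of all genes lower in all 5 sub-clusters was not computed.

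**Figure D3:**
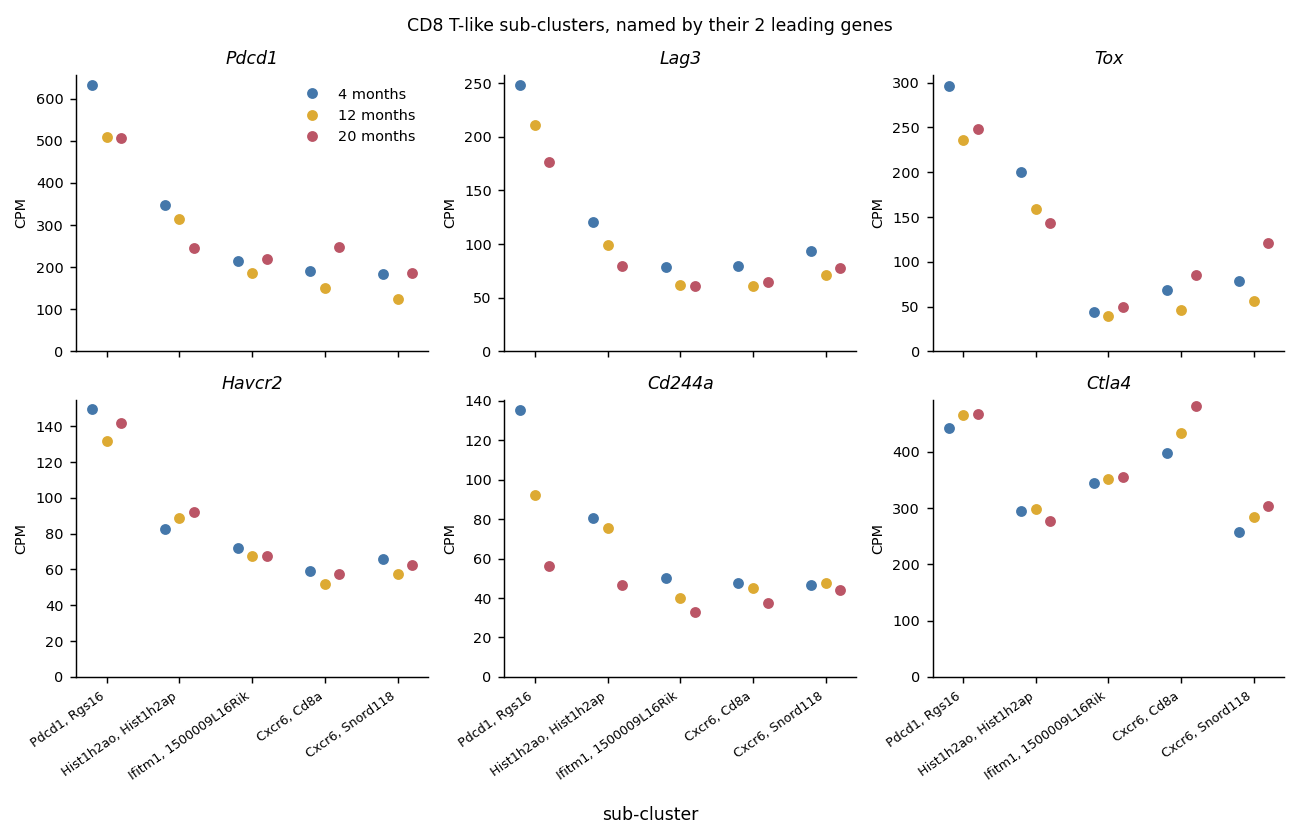
CPM of Pdcd1, Lag3, Tox, Havcr2, Cd244a and Ctla4 in 5 sub-clusters of CD8 T-like cells, named by their 2 leading genes, with 1 point per library coloured by age. The sub-cluster led by Pdcd1 and Rgs16 is highest for Pdcd1, at 632, 509 and 506 CPM, and its Cd244a points spread from 135 CPM at 4 months to 56.4 CPM at 20 months.

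Related genes, taken from 3 lists, were set beside the 10 in CD8 T-like cells. Of 12 other inhibitory receptors 11 passed the level filter, and at 20 months 1 was past 1.5-fold lower and none higher: Cd200r1, the receptor of CD200, at 23.3, 17.9 and 12.7 CPM (-0.88). Of 12 transcription factors of the exhausted programme 11 passed. Nr4a1 (175, 214 and 116 CPM, -0.59) and Nr4a2 (183, 134 and 103 CPM, -0.82), factors induced by antigen receptor signals, were past the fold lower, and Eomes, a T-box factor, was past it higher (28.0, 41.4 and 53.9 CPM, 0.95). Of 10 signalling partners 8 passed and Ptpn6, the phosphatase SHP-1, was past it lower (199, 176 and 125 CPM, -0.67). No gene of the 3 lists was past 1.5-fold at 12 months. Over all genes in these cells, 1.13% were lower and 2.75% higher by that fold at 20 months. At 12 months the shares were 0.844% and 2.52%. The list medians at 20 months were -0.03, -0.02 and 0.00.

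Outside the CD8 T-like cells some of the 10 genes differed between ages in the same direction and others did not. Cd244a was lower at 20 months than at 4 in each of the 17 classes, from -1.38 in gamma-delta T-like cells to -0.01 in type 2 dendritic cell-like cells. The counting interval included 0 in the regulatory T-like, monocyte-like, nonclassical monocyte-like, Ccl1-led, Eya4-led and every dendritic class. It lay below 0 in the other classes. All these ratios compare the same libraries, and the share of all genes lower in every class was not computed. Pdcd1 was lower in some classes and higher in others. NK-like cells had none of 9 genes that passed the level filter past 1.5-fold at 12 months, where 0.727% of all genes were lower and 2.26% higher, or at 20 months, where 0.629% were lower and 2.21% higher. Cd244a there was at -0.08 and -0.20. Regulatory T-like cells also had none, with 3.19% lower and 3.53% higher at 12 months and 3.51% lower and 4.27% higher at 20; Ctla4 was at -0.06 and -0.16, and Havcr2 at -0.30 and -0.51. In macrophage-like cells Pdcd1 (0.64), Tigit (0.62) and Cd160 (0.76) were past 1.5-fold higher at 12 months, against 2.62% of all genes, and none was lower, against 0.728%. None of the 10 was past it at 20 months, where 1.84% of all genes were higher and 1.12% lower. T cell markers were higher in those cells at the same ages: Cd8b1 was at 111, 198 and 191 CPM and Trac at 104, 170 and 132 CPM. The summed T cell marker level of the macrophage-like cells was 351, 514 and 431 CPM. Cd244a in macrophage-like cells was at -0.53 and -0.51, just short of 1.5-fold, and Havcr2 at -0.20 and -0.34.

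The T-like cells bearing Ly49 receptor genes had the clearest opposite pattern for Pdcd1, with 34.5, 100 and 68.3 CPM in 473, 800 and 203 cells. The log2 ratios were 1.54 at 12 months and 0.99 at 20. At 12 months Lag3 (0.99) and Tigit (0.62) were also past 1.5-fold higher, where 3.31% of all genes were, and at 20 months Tigit (0.67) was, where 5.23% were. None of the 10 was lower by that fold, against 3.71% and 8.23% of all genes. Gamma-delta T-like cells numbered 66, 77 and 80 and had 5 genes past 1.5-fold higher and 1 lower at 12 months, and 4 and 1 at 20. In so few cells 15.4% and 15.2% of all genes were past it higher and 15.3% and 17.8% lower. Tox in these cells was at 45.0, 90.002 and 122 CPM, and Cd244a at 63.4, 29.3 and 24.4 CPM. Cd101 had no count in them at 4 months and is counted among the higher ones.

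The Dapl1-led T cell cluster had lower levels of Pdcd1, Lag3 and Cd244a at 20 months, as CD8 T-like cells had. Pdcd1 was at 59.7, 43.2 and 40.1 CPM, with log2 ratios of -0.47 and -0.58 (interval at 20 months -0.81 to -0.34). Cd244a was at 37.7, 36.1 and 26.0 CPM, with log2 ratios of -0.06 and -0.53 (interval at 20 months -0.82 to -0.23). Lag3 was at 33.8, 22.1 and 17.1 CPM there, with log2 ratios of -0.61 and -0.98, the 1 gene of the 10 past 1.5-fold lower at each age, where 3.7% and 3.97% of all genes were. Tigit (0.63) was past it higher at 12 months, where 3.07% were, and no gene of the 10 at 20 months, where 3.22% were. The Ccl1-led cluster, with few cells, had Tigit (-1.12 and -0.73) and Tox (-0.73 and -0.64) past it lower at both ages, against 15.5% and 18.1% of all genes. It had Cd101 past it higher at 20 months (1.13), against 16%, and none at 12 months, against 18.5%. The Eya4-led cluster had Cd160 past it lower at 20 months (-0.78), against 19.9%, and no other of the 10, with 11.5% lower and 10.9% higher at 12 months and 11.6% higher at 20.

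In the myeloid and dendritic classes the genes past 1.5-fold were mostly ones with low levels there. In monocyte-like cells Pdcd1 (0.62) and Tigit (0.67) were higher at 12 months, against 4.33% of all genes, with none lower (1.48%) and none past it at 20 months (3.82% higher, 1.7% lower). In activated monocyte-like cells Pdcd1 (0.64), Lag3 (0.76) and Cd101 (0.75) were higher at 12 months (3.43%) and Cd101 (0.87) at 20 months (2.74%), with none lower (1.51% at both ages). The Il1b-led cluster had Lag3 higher at 12 months (0.63, against 3.06%, with 1.41% lower), and Tox higher (0.63, against 2.91%) and Cd244a lower (-0.60, against 1.83%) at 20 months. Type 2 dendritic cell-like cells had Tigit (0.69) and Cd101 (0.70) higher at 12 months (4.56%, with 1.93% lower) and Cd101 (0.72) at 20 months (4.57%, with 3.53% lower). Type 1 dendritic cell-like cells had Tox lower at 12 months (-0.82, against 7.84%, with 10.1% higher) and Entpd1 higher at 20 months (0.70, against 10.2%, with 6.45% lower). Mature dendritic cell-like cells had 4 genes higher at 12 months (10.2%, with 6.29% lower), and 2 higher (10.4%) and 1 lower (11.4%) at 20. Nonclassical monocyte-like cells had 5 higher (13.7%) and 1 lower (12.1%) at 12 months, and 1 higher (15.6%, with 13.2% lower) at 20. Plasmacytoid dendritic cell-like cells had 2 lower (17.2%, with 17.7% higher) at 12 months, and 2 higher (19.3%) and 1 lower (17.4%) at 20. The last 3 classes had few cells, and large shares of all genes were past the fold in them.

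Within CD8 T-like cells the 10 genes were found together slightly more often than the product of their single shares. After thinning to 3000 counts a cell had a mean of 2.69 of the 10 genes at 4 months (SD between cells 1.70), 2.47 at 12 (1.53) and 2.64 at 20 (1.52). None was detected in 7.52%, 6.93% and 6.23% of cells, against 3.40%, 4.50% and 3.48% from the product of the single shares. At least 4 were detected in 29.9% (95% binomial interval 28.2% to 31.5%), 23.4% (22.1% to 24.8%) and 27.7% (26.2% to 29.2%), against 26.0%, 20.4% and 24.3%. At least 5 were detected in 16.5%, 10.1% and 11.4%, against 8.88%, 6.17% and 7.85%. The most in 1 cell was 9 genes, in 1 cell of each library, and no cell had all 10. The share with at least 4 genes was lower at 12 months than at 4 beyond the counting intervals. The share with at least 5 was lower at both later ages, with intervals of 15.2% to 17.8%, 9.17% to 11.1% and 10.3% to 12.5%. With 1 library per age, these differences cannot be told apart from differences between libraries, and the mixture of sub-clusters differed as well. With no thinning the order of the means turned, to 4.03, 4.14 and 4.17 genes.

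**Figure D4:**
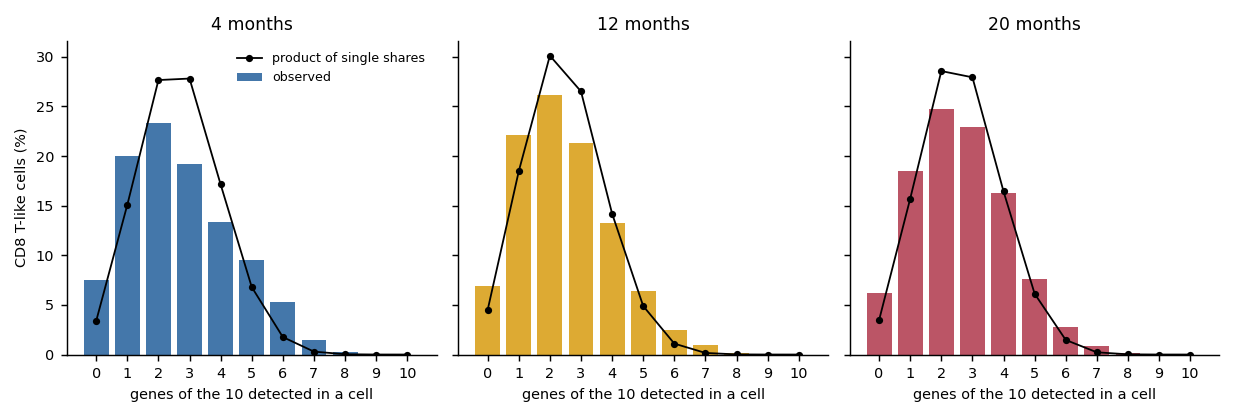
Share of CD8 T-like cells (y axis, percent) by how many of the 10 genes were detected after thinning to 3000 counts (x axis), in 3 panels for 4, 12 and 20 months; bars are observed and black points the product of the single shares. Cells with none and with 5 or more are above the points in each library, for example 16.5% against 8.88% with at least 5 at 4 months.

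Over all 45 pairs, the observed number of cells with both genes was 1.18, 1.13 and 1.10 times that of the product of the single shares. Of the 45 pairs 43, 38 and 37 were above 1, the interval was clear of 1 for 22, 15 and 15, and none was clear below it. The same ratio was not computed for pairs of other genes, so how common such values are in these cells is not known. Lag3 and Tox (1.30 to 1.57 over the 3 libraries), Pdcd1 and Tox (1.28 to 1.59) and Lag3 and Havcr2 (1.28 to 1.41) stood at the top with Pdcd1 and Lag3 (1.28 to 1.39). Pdcd1 and Ctla4 were the commonest of these to be seen, with both in 29.3% of cells at 4 months against 27.2% from the product, but their ratio was 1.05 to 1.09. Pdcd1 and Cd101 (0.98 to 1.03) and Cd160 and Entpd1 (0.95 to 1.03) were found together as often as the product. When the product was taken within each sub-cluster, the overall ratio was 1.07, 1.06 and 1.06, with 8 pairs clear above 1 in each library. Lag3 and Tox then lay at 1.14 to 1.22 and Pdcd1 and Tox at 1.15 to 1.26. Part of the joint detection therefore lay between sub-clusters and part within them.

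**Figure D5:**
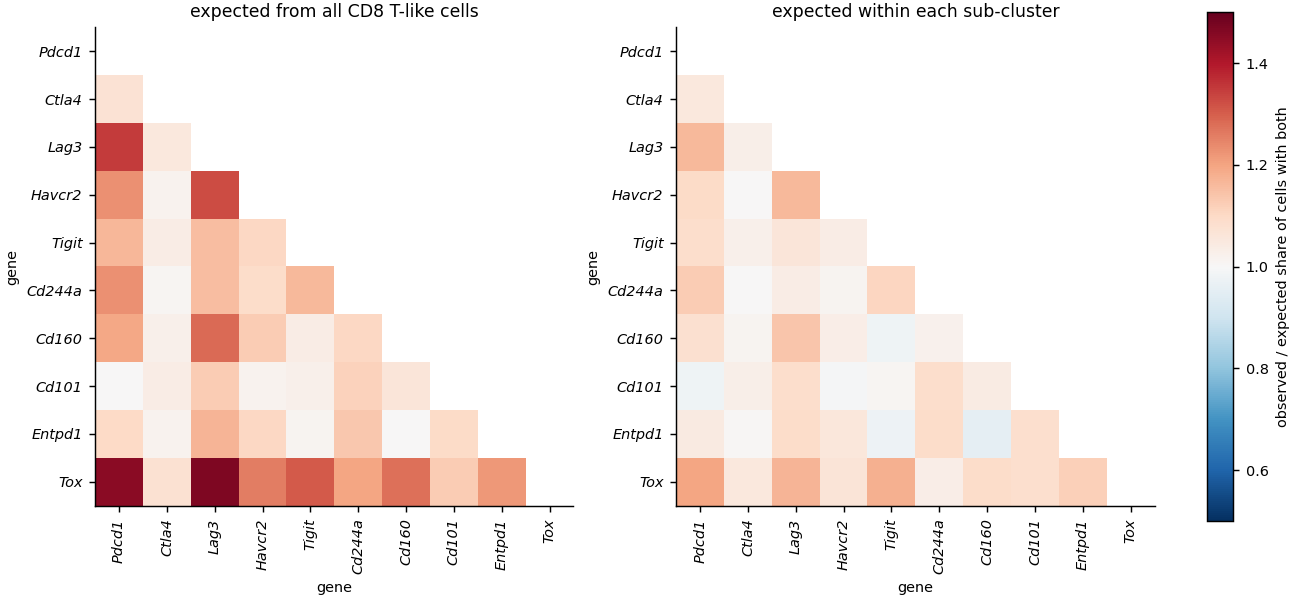
Observed over expected share of CD8 T-like cells with both genes of each pair after thinning, as the mean of the 3 libraries, with the expected share from all CD8 T-like cells (left) or within each sub-cluster (right). Lag3 and Tox, Pdcd1 and Tox, Pdcd1 and Lag3, and Lag3 and Havcr2 are darkest red on the left and paler on the right, where Lag3 and Tox lie at 1.14 to 1.22.

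The CD8 T-like cells with a Pdcd1 count numbered 1420, 1474 and 1538 after thinning, and those without 1652, 2305 and 1768. Tox was detected in 39.0%, 33.5% and 36.5% of the first and in 15.4%, 13.1% and 21.7% of the second. Lag3 was detected in 39.1%, 30.8% and 28.9% against 18.7%, 17.0% and 17.1%. Tcf7, a factor of stem-like T cells, went the opposite way, in 3.73%, 4.34% and 5.46% against 7.99%, 8.16% and 6.96%. The macrophage gene C1qb was about equally frequent, in 33.2%, 43.5% and 50.9% against 33.5%, 44.2% and 51.5%. Cd101 was likewise about equally frequent, in 7.39%, 6.99% and 6.44% against 7.69%, 7.11% and 6.05%. By sub-cluster, the cells led by Pdcd1 and Rgs16 had a mean of 4.21, 3.74 and 3.62 of the 10 genes, and at least 4 in 67.8%, 53.3% and 53.0%. The sub-cluster led by Ifitm1 had a mean of 1.98, 1.91 and 1.95.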

How the data were processed

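Raw count matrices per gene and cell were used as deposited by the authors, 1 per age; STAR 2.7.10a and GRCm38 are named, per the submitters' processing notes, and the annotation, strand and molecule counting are not given in the sources used here. Total counts were 110371225, 127850782 and 119873564. Cells under 500 counts or above 15% mitochondrial counts were dropped, and doublets were called with Scrublet at 6% per library and removed (863, 879 and 881). Counts were scaled to 10000 per cell, and 2000 variable genes, without 262 T cell receptor genes and 44 listed genes, gave 30 principal components, 15 neighbours and Leiden clusters (resolution 1.0, 0.5 for myeloid cells). Tools were Python 3.11.15, numpy 2.4.6, scipy 1.17.1, pandas 2.3.3, scanpy 1.11.5, igraph 0.11.9, scikit-learn 1.9.0 and matplotlib 3.10.9.

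Counts were summed per class and library. Levels have exact Poisson intervals and shares exact Clopper-Pearson intervals (95%). Age differences used genes of at least 10 CPM on average and a 1.5-fold rule; class differences used 2-fold in all 3 libraries. Shares of cells were computed after each cell was thinned to 3000 counts, with no cell lost, since the smallest had 3555. The 10 genes are all named, with the listed genes past the fold and the 3 closest genes by level. The members and lists were chosen with earlier results of these data known. The scripts were checked on simulated counts. Alternatives were other filters, scalings, thinning depths and definitions of the CD8 class.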

Additional observations from a re-analysis of the deposited data

Results flagged for a closer look

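The values here are those where both later ages lay on one side of the 4-month level in CD8 T-like cells and both on the other side in another class, with all 4 counting intervals clear of 0. With 1 library per age, the difference was not tested. Other genes and classes lay on opposite sides at 20 months alone, such as Cd160 (0.15 in CD8 T-like cells, -0.43 in T-like cells bearing Ly49 receptor genes), and are not included. Pdcd1 was lower in CD8 T-like cells (-0.30 on the log2 scale) and higher in 7 other classes by this rule; in the Dapl1-led T cell cluster it was lower as well (-0.58). It was higher by 0.99 in T-like cells bearing Ly49 receptor genes, 0.56 in gamma-delta T-like cells and 0.38 in NK-like cells. In the myeloid classes it was higher by 0.54 in macrophage-like cells, 0.50 in monocyte-like cells, 0.49 in activated monocyte-like cells and 0.42 in the cluster led by Il1b and Cxcl2. Beside these, Cd8b1 in macrophage-like cells was at 111, 198 and 191 CPM at 4, 12 and 20 months and in NK-like cells at 111, 192 and 188 CPM. Entpd1 was lower in CD8 T-like cells (-0.25) and higher in macrophage-like cells by 0.21. At 20 months alone it was also higher in type 1 dendritic cell-like cells (0.70), the Dapl1-led cluster (0.42) and monocyte-like cells (0.17). Tox was at -0.10 in CD8 T-like cells and at 1.44 in gamma-delta T-like cells, a class of 66 to 80 cells per library.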

How the results depend on the processing

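Of 143 recomputed summary values 108 stayed within the set bounds and 35 moved. These labels do not record a change of sign. The median age ratio changed sign at both ages without NK marker counts, as given below. Alternatives added after seeing the data were cells without NK marker counts, the dividing sub-cluster left out and the Dapl1-led cluster counted with the CD8 T-like cells. The median age ratio of the 10 genes at 20 months (-0.17) was -0.32 with at least 5000 counts, -0.33 with the Dapl1-led cluster and 0.0188 without NK marker counts, where it was 0.0205 at 12 months. The 1 gene lower by 1.5-fold at 20 months became 0 with a per-cell CD8 gate, without NK marker counts and at 2-fold, 2 with at least 5000 counts and at a smaller fold, and 3 with the Dapl1-led cluster; 1 was higher without NK marker counts. At 12 months 4 were lower at that smaller fold. The shares of all genes past the same fold are not given for these settings. How common such counts are among all genes is therefore not known, and no conclusion is drawn from them. Mean genes detected at 4, 12 and 20 months was 1.16, 1.06 and 1.14 at 1000 counts, 4.03, 4.14 and 4.17 with no thinning, 2.01, 1.95 and 1.86 with the gate, and 2.48, 2.26 and 2.19 with the Dapl1-led cluster. The joint detection ratio was 1.07, 1.06 and 1.06 within sub-clusters. At 4 months it was 1.26 at 1000 counts, 1.23 with no thinning and 1.16 without doublet removal; at 12 months it was 1.21 at 1000 counts, 1.17 with no thinning and 1.17 with the Dapl1-led cluster; at 20 months it was 1.15 with the gate and 1.18 with the Dapl1-led cluster. The cause was not tested. Cd244a at 20 months ran from -0.92 to -0.47 and passed 1.5-fold in 11 of 13 settings. Pdcd1 at 20 months was -0.65 with the Dapl1-led cluster and 0.07 without NK marker counts, and Tox -0.39 and 0.62. No paired analysis was possible because each age has 1 library. Subtraction of background measured in B-like or neutrophil-like cells was not run, since no library held 50 of either, and no sub-cluster of CD8 T-like cells met the rule for resting cells. Depth limits Cd101 and classes of under 100 cells most.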
